A study of Homo sapiens with 2 samples.

Results

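The genes described here encode the parts that build and load MHC class I molecules. They are the heavy chain genes HLA-B, HLA-C, HLA-E and HLA-F, the light chain gene B2M, the peptide transporter genes TAP1 and TAP2, the loading factor gene TAPBP (tapasin), and NLRC5, a coactivator of class I transcription. They were chosen by symbol, and all 9 were found among the 36601 genes of each expression matrix. The values come from single-cell RNA-Seq (scRNA-Seq) of 2 human prostate carcinoma lines. LNCaP_C4-2B was derived from LNCaP and is castration-resistant, and LNCaP_FGC is the parental strain. Both were grown in RPMI medium with serum and antibiotics and received no treatment. Each line gave 1 library of 1850 cells, so there are no replicates, no p-value is given, and strain cannot be told apart from the different batch labels that the libraries carry.

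MHC class I molecules display peptides from inside the cell to CD8+ T cells. The proteasome cuts proteins into peptides, the TAP1/TAP2 transporter moves them into the endoplasmic reticulum, and tapasin holds an empty heavy chain and its B2M partner at the transporter until a peptide fits. Interferons raise the transcription of most of these genes, and loss of class I display is a common route by which tumors avoid T cells. HLA-B and HLA-C present peptides to T cells, whereas HLA-E mainly presents peptides from the leader sequences of other class I chains to receptors on natural killer cells, and HLA-F is a nonclassical chain of low abundance in most cells.

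Class I promoters carry a conserved module upstream of the start site. An X2 box binds CREB/ATF factors, a Y box binds NF-Y, and a kappa B site binds NF-kappa B. NLRC5 is recruited through the factors at the X and Y boxes. The stretches below are shown for 3 heavy chains and the light chain they pair with, so that the elements each holds can be compared. HLA-C and HLA-F were called higher in LNCaP_C4-2B, and HLA-B and B2M were not called. They are RefSeq windows on GRCh38.p14, each written 5′ to 3′ on the gene's own strand, and capitals mark every match to 4 motifs on either strand. The motifs were the X2 core TGACGC, the Y box core CCAAT, the interferon-stimulated response element core (GAAA, 2 bases of any kind and GAAA again), and the kappa B pattern (GGG, 2 bases of any kind, T, 2 bases of any kind and CC).
HLA-B, chr6:31357224-31357363, minus strand: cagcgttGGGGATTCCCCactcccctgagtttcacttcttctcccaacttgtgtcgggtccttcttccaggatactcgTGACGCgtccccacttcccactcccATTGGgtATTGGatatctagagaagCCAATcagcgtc
HLA-C, chr6:31272137-31272276, minus strand: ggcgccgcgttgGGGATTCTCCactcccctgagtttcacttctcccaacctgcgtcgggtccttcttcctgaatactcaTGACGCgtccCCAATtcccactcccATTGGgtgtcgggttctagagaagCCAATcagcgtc
HLA-F, chr6:29723250-29723389, plus strand: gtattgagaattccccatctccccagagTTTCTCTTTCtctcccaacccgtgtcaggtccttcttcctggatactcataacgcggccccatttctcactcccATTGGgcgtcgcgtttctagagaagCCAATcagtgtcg
B2M, chr15:44711365-44711478, plus strand: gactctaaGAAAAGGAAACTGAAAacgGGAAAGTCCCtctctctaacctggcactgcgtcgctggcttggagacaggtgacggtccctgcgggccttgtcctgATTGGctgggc

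The X2 core was found 106 bases before the start of HLA-B and 105 bases before that of HLA-C, in each case upstream of several Y box cores. It was not found in the HLA-F or B2M window. The kappa B stretch differed between HLA-B and HLA-C by C9T, with the base of HLA-B first and positions counted from 1 at the first G of the run of Gs that opens the stretch. The HLA-F and B2M windows held the interferon-stimulated response element core, B2M at 2 overlapping positions that begin 144 and 138 bases before the start. HLA-B and HLA-C had no match to this exact pattern, which does not show that they lack such an element. The table matched 7 of the 9 members, not HLA-E and NLRC5. TAP1, TAP2 and TAPBP each held the interferon-stimulated response element core as well, and TAP2 held the X2 core 35 bases before its start. Of all 35116 windows in the table, which span 250 bases before to 50 bases after a start, 9.14% held the X2 core, 34.6% the Y box core, 3.57% the interferon-stimulated response element core and 22.02% the kappa B pattern. The X2 and Y box cores occurred together in 3.03%. A match is a run of letters only, and factor binding was not measured.

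Of the 9 members, 7 lie on chromosome 6 in the MHC. GENCODE release 44 on GRCh38 places all of them as protein-coding genes. From the telomeric end these are HLA-F (29722775 to 29738528), HLA-E (30489509 to 30494194), HLA-C (31268749 to 31272130), HLA-B (31353872 to 31367067), TAP2 (32821833 to 32838739), TAP1 (32845209 to 32853816) and TAPBP (33299694 to 33314284). B2M lies on chromosome 15 (44711358 to 44718851) and NLRC5 on chromosome 16 (56989485 to 57083531). The chemistry reads the 3′ end of transcripts, and heavy chain genes resemble one another, so the uniqueness of the ends was checked. In the last 500 bases of the representative transcript, 2.88% of 50-base words of HLA-B and of HLA-C, and 0.665% of those of HLA-F, occurred in a transcript of another gene. The other 6 members had none. This was measured on the reference sequence, and the effect of the alleles these lines carry on alignment was not tested.

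The libraries held 35149989 UMIs (LNCaP_C4-2B) and 35150013 UMIs (LNCaP_FGC), a mean of 19000 per cell in each, to which the authors had thinned the counts. Cells ranged from 9593 to 48630 UMIs in LNCaP_C4-2B and from 8988 to 51088 in LNCaP_FGC. Mitochondrial genes took 8.35% of UMIs in LNCaP_C4-2B and 6.27% in LNCaP_FGC. Levels are given in CPM, the UMIs of a gene per 1000000 UMIs of the library or group of cells, where 1 UMI is 0.0284 CPM. The bracketed ranges are exact 95% intervals, which cover counting error only and not the variation between cells, cultures or libraries. The libraries shared 0 cell barcodes. Of 10 prostate luminal markers, all were detected in both libraries, summing to 5526 CPM in LNCaP_C4-2B and 3221 CPM in LNCaP_FGC. Of 11 immune cell markers, PTPRC, CD3D, CD3E, MS4A1, CD79A and NKG7 were at 0 in both libraries, and all 11 summed to 2.19 CPM in LNCaP_C4-2B and 1.62 CPM in LNCaP_FGC, with CD68 at 74 of 77 UMIs in LNCaP_C4-2B and 50 of 57 in LNCaP_FGC. Fibroblast markers summed to 1.48 CPM in LNCaP_C4-2B and 22.6 CPM in LNCaP_FGC, of which ACTA2, smooth muscle actin, had 20 UMIs in LNCaP_C4-2B and 600 in LNCaP_FGC, while COL1A2 and DCN were at 0 in both. Endothelial markers summed to 0.910 CPM in LNCaP_C4-2B and 3.50 CPM in LNCaP_FGC. The part of these markers in the results was not tested. Each library holds a single line, so no cell type that should lack these genes was present to show how many UMIs come from free RNA.

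The first comparison asks how class I and antigen processing transcripts differ between the derived strain and its parent. HLA-C, HLA-E and HLA-F were higher in LNCaP_C4-2B, and TAP1 and NLRC5 were lower. B2M, HLA-B, TAP2 and TAPBP were lower in CPM but moved about as the median gene did. Over the 17897 genes with at least 10 UMIs, the median log2 ratio of LNCaP_C4-2B over LNCaP_FGC was -0.49, and a gene was called where it lay at least 1.5-fold from that median. By this rule 3 members were called higher and 2 lower, with 4 within. Of all genes tested, 26% were called higher and 26.4% lower, so the members' share of calls was near that of the transcriptome. The members' median log2 ratio was -0.73, against -0.49 over all genes. When the CPM ratio itself was set against 1, the members split into 2 higher and 5 lower, and all genes into 13.6% higher and 45.2% lower.

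**Figure D1:**
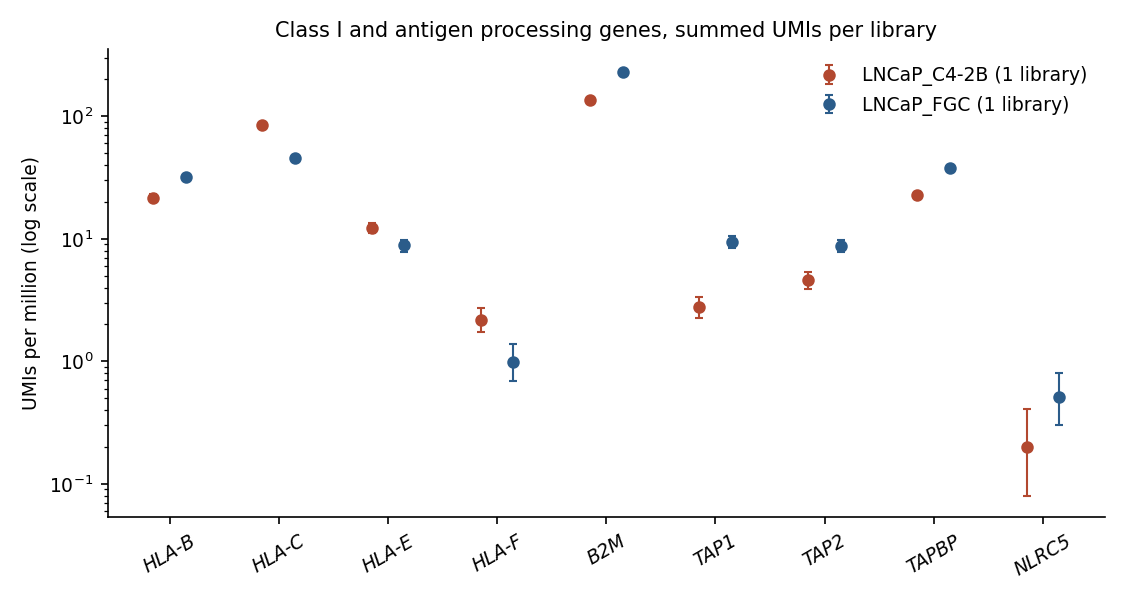
Level of each member in CPM (log axis), summed over the 1850 cells of the LNCaP_C4-2B library (left point of each pair) and of the LNCaP_FGC library (right point), with exact Poisson 95% intervals. HLA-C, HLA-E and HLA-F sit higher in LNCaP_C4-2B, the other 6 members in LNCaP_FGC.

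Among the heavy chains, HLA-C had 2985 UMIs in LNCaP_C4-2B, against 1604 in LNCaP_FGC. This is 84.9 CPM (81.9 to 88.0) in LNCaP_C4-2B and 45.6 CPM (43.4 to 47.9) in LNCaP_FGC, a ratio of 1.86 (1.75 to 1.98). An HLA-C UMI was found in 75.8% of LNCaP_C4-2B cells (73.8 to 77.7) and in 52.8% of LNCaP_FGC cells (50.5 to 55.1). HLA-B ran the other way in CPM, at 21.7 CPM (20.2 to 23.3) in LNCaP_C4-2B and 31.9 CPM (30.02 to 33.8) in LNCaP_FGC, 1.47-fold lower (1.34 to 1.61). Set against the median gene it differed by only -0.07 on the log2 scale, and with median-of-ratios scaling its ratio was 0.949 (0.865 to 1.04). The neighboring genes HLA-C and HLA-B, which share the promoter module shown above, thus stood at log2 values of 1.38 and -0.07 from the median gene.

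The nonclassical chains were sparser. HLA-E had 430 UMIs in LNCaP_C4-2B and 310 in LNCaP_FGC, or 12.2 CPM (11.1 to 13.4) in LNCaP_C4-2B and 8.82 CPM (7.86 to 9.86) in LNCaP_FGC, a ratio of 1.39 (1.20 to 1.61). HLA-F had 77 UMIs in LNCaP_C4-2B and 35 in LNCaP_FGC, which is 2.19 CPM in LNCaP_C4-2B and 0.996 CPM in LNCaP_FGC and a ratio of 2.20 (1.46 to 3.38). HLA-F was seen in 3.95% of LNCaP_C4-2B cells and 1.89% of LNCaP_FGC cells. Over 8 alternative choices of scaling, depth and cells, HLA-C lay 1.27 to 1.40, HLA-E 0.84 to 1.02 and HLA-F 1.47 to 1.72 log2 units over the median gene. The median-of-ratios and TMM factors among these choices cannot change a value measured from the median gene. These ranges therefore reflect the choice of depth and cells, and hardly that of scaling.

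B2M, the shared light chain, was the most often detected member. It had 4804 UMIs in LNCaP_C4-2B and 8128 in LNCaP_FGC, or 137 CPM (133 to 141) in LNCaP_C4-2B and 231 CPM (226 to 236) in LNCaP_FGC. It was 1.69-fold lower in LNCaP_C4-2B (1.63 to 1.75), and -0.27 on the log2 scale from the median gene. Cells held a median of 2 B2M UMIs and a highest of 27 in LNCaP_C4-2B, against a median of 4 and a highest of 36 in LNCaP_FGC. A B2M UMI was present in 86.4% of LNCaP_C4-2B cells and 95.6% of LNCaP_FGC cells.

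Both subunits of the peptide transporter were lower in CPM in LNCaP_C4-2B, and TAP1 was called. TAP1 had 97 UMIs in LNCaP_C4-2B and 333 in LNCaP_FGC. This is 2.76 CPM (2.24 to 3.37) in LNCaP_C4-2B against 9.47 CPM (8.48 to 10.5) in LNCaP_FGC, 3.43-fold lower (2.73 to 4.35) and -1.29 on the log2 scale from the median gene. A TAP1 UMI was found in 5.14% of LNCaP_C4-2B cells and 15.4% of LNCaP_FGC cells. TAP2, the other subunit, had 162 UMIs in LNCaP_C4-2B and 308 in LNCaP_FGC, 1.90-fold lower (1.57 to 2.31), which lay within 1.5-fold of the median gene. TAPBP stood at 22.6 CPM in LNCaP_C4-2B and 37.6 CPM in LNCaP_FGC, 1.66-fold lower (1.52 to 1.82), and within 1.5-fold of the median gene as well.

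NLRC5 was close to the limit of detection. It had 7 UMIs in LNCaP_C4-2B, each in a different cell, and 18 in LNCaP_FGC, also in 18 cells. That is 0.199 CPM (0.0801 to 0.410) in LNCaP_C4-2B against 0.512 CPM (0.303 to 0.809) in LNCaP_FGC, 2.57-fold lower with an interval of 1.02 to 7.28. The call of NLRC5 as lower was lost in G1 cells alone and without the deepest 10% of cells. With so few positive cells, the other members were not compared between cells with and without NLRC5.

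**Figure D2:**
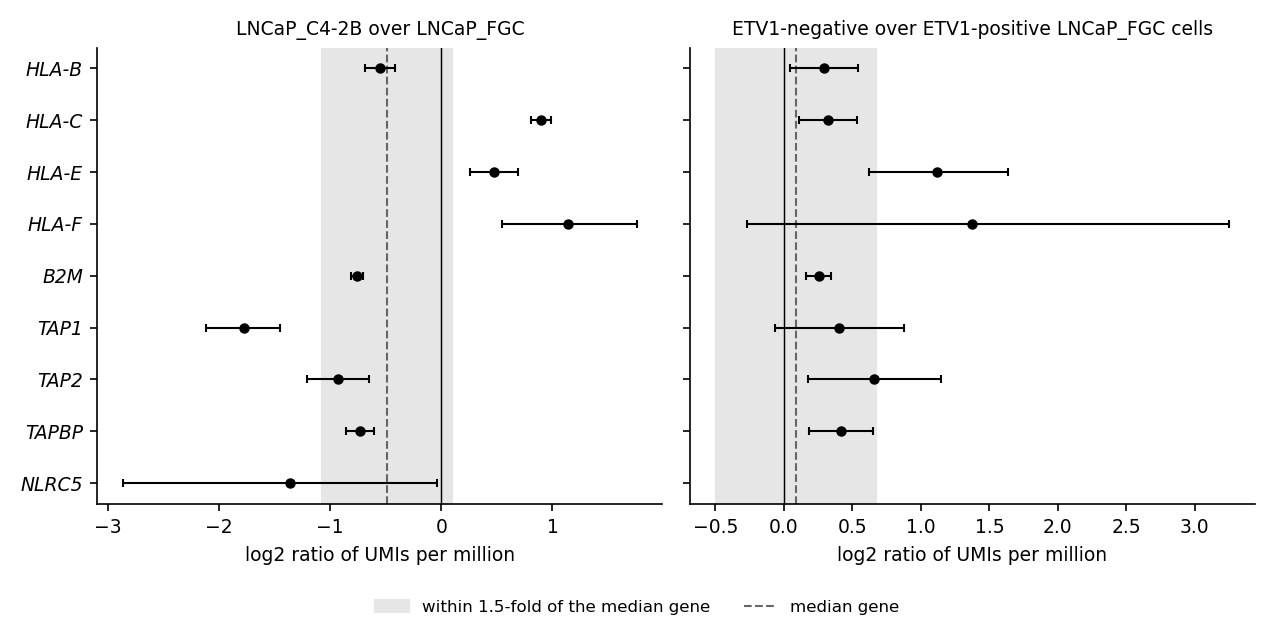
Log2 ratio of CPM for each member with its exact conditional 95% interval, for LNCaP_C4-2B over LNCaP_FGC (left) and for ETV1-negative over ETV1-positive LNCaP_FGC cells (right, NLRC5 with under 10 UMIs left out). The dashed line is the median gene and the gray band spans 1.5-fold on each side of it. Between the libraries HLA-C, HLA-E and HLA-F lie right of the band and TAP1 and NLRC5 left of it, and by ETV1 status HLA-E and HLA-F lie right of the band.

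The genes around the members were set beside all tested genes, of which 26% were called higher and 26.4% lower between the libraries. Of 117 tested genes that start within 1 Mb of a member on chromosome 6, members left out, 41 were called higher and 18 lower in LNCaP_C4-2B, and 58 were within. Their median log2 ratio was 0.29 higher than that of all genes, with quartiles of -0.23 and 0.85. Around TAP1 and TAP2 alone, 21 of 52 neighbors were higher and 9 lower, with a median of 0.45, whereas TAP1 itself was at -1.29 and TAP2 at -0.44. Around HLA-B and HLA-C, 23 of 71 neighbors were higher and 10 lower, with a median of 0.32. Near B2M, 7 of 24 neighbors were higher and 7 lower, with a median of -0.16, and near NLRC5 8 of 23 were higher and 4 lower, with a median of 0.36. Positions were known for 80.4% of the tested genes. Copy number was not measured in these files.

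Other genes of the pathway came from lists set alongside the members. In the list of peptide supply, 2 of 7 measured genes were higher, 3 lower and 2 within. PSMB10, an immunoproteasome subunit, was at 83.5 CPM in LNCaP_C4-2B and 57.0 CPM in LNCaP_FGC, a ratio of 1.46 (1.38 to 1.55). The partner subunits PSMB8 and PSMB9 were sparse and moved apart. PSMB8 had 38 UMIs in LNCaP_C4-2B and 17 in LNCaP_FGC, a ratio of 2.24 (1.23 to 4.22). PSMB9, which shares a bidirectional promoter region with TAP1, had 8 UMIs in LNCaP_C4-2B and 29 in LNCaP_FGC, 3.63-fold lower (1.62 to 9.18). PSME2, a proteasome activator subunit, was 1.39-fold lower in CPM and within 1.5-fold of the median gene. The trimming peptidases ERAP1 and ERAP2, named after their values were seen, were sparse as well. ERAP1 had 46 UMIs in LNCaP_C4-2B and 140 in LNCaP_FGC, 3.04-fold lower (2.17 to 4.34), and ERAP2 had 8 UMIs in LNCaP_C4-2B and 46 in LNCaP_FGC, 5.75-fold lower (2.69 to 14.1). The list of loading chaperones had 2 of 4 genes higher and 2 within, from PDIA3, a thiol oxidoreductase of the loading complex, at a ratio of 1.39 (1.36 to 1.43), to the lectin chaperone CANX, 1.82-fold lower (1.75 to 1.89).

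Of 13 regulators of class I transcription, 3 were higher, 2 lower and 8 within. RFXANK, a subunit of the RFX complex that binds the X box, was at 48.4 CPM in LNCaP_C4-2B and 26.1 CPM in LNCaP_FGC, a ratio of 1.85 (1.71 to 2.01). Its partner RFX5 was at 14.4 CPM in LNCaP_C4-2B and 26.6 CPM in LNCaP_FGC, 1.84-fold lower (1.65 to 2.06) and within 1.5-fold of the median gene. NFKB1 was 2.93-fold lower (2.67 to 3.23). IRF1, an interferon-induced activator of class I and TAP1 promoters, had 43 UMIs in LNCaP_C4-2B and 161 in LNCaP_FGC, 3.74-fold lower (2.66 to 5.37). Of 11 interferon signaling genes, 1 was higher, 4 lower and 6 within. IFNAR1, a chain of the type I interferon receptor, was 2.61-fold lower (2.45 to 2.79). JAK1, the gene of a receptor-associated kinase, carries frameshift mutations in LNCaP_FGC in the authors' account and was measured in both libraries. It was at 3.78 CPM in LNCaP_C4-2B and 4.47 CPM in LNCaP_FGC, with an interval of the ratio from 0.667 to 1.07 that includes 1.

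Class II genes and class I-like genes were set beside the members. All 6 class II pathway genes with enough UMIs were lower in LNCaP_C4-2B, with a median log2 ratio of -3.38 when a gene at 0 was set to 3 UMIs, or 0.0853 CPM. HLA-DQB1 had 1 UMI in LNCaP_C4-2B and 198 in LNCaP_FGC, a ratio of 0.00505 with a counting interval from 0.000127 to 0.0285. HLA-DMB, a subunit of the class II peptide editor, had 3 UMIs in LNCaP_C4-2B and 144 in LNCaP_FGC, a ratio of 0.0208 (0.00425 to 0.0621). Both were named after their values were seen. CD74, the invariant chain that class II molecules need, had 0 UMIs in LNCaP_C4-2B and 13 in LNCaP_FGC, while CIITA, the class II counterpart of NLRC5, had 15 in LNCaP_C4-2B and 38 in LNCaP_FGC. Of 7 class I-like and NKG2D ligand genes, 2 were higher and 4 lower. The genes of this list were also named after their values were seen. MICA, a stress-induced NKG2D ligand of the MHC region, was at 12.8 CPM in LNCaP_C4-2B and 6.66 CPM in LNCaP_FGC, a ratio of 1.92 (1.64 to 2.26). FCGRT, the neonatal Fc receptor chain, was the other one higher, with 36 UMIs in LNCaP_C4-2B and 7 in LNCaP_FGC. The NKG2D ligands ULBP1, ULBP2 and ULBP3 were 3.36-fold (2.48 to 4.61), 2.97-fold (2.03 to 4.44) and 4.29-fold (2.95 to 6.38) lower, and MR1, which presents vitamin B metabolites, 2.77-fold lower (1.94 to 4.02).

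The members were then compared by ETV1 status within LNCaP_FGC. ETV1 is an ETS family transcription factor that is rearranged and highly expressed in this line, and its transcript varies between cells. Each cell was thinned to 11901 UMIs, which left 1623 LNCaP_FGC cells, so that a cell without ETV1 is not simply a shallow one. This gave 628 ETV1-negative cells (0 UMIs) and 740 ETV1-positive cells (at least 2 UMIs), and 255 cells with 1 UMI were left out. Thinning also drops ETV1 UMIs, so ETV1-negative here does not show that the gene was silent in the cell. All 8 members with at least 10 UMIs had higher CPM in ETV1-negative cells, as did the median gene, at a log2 ratio of 0.09. The call at 1.5-fold from the median gene was met by 2 of the 8, HLA-E and HLA-F, both higher, and by none in the lower direction. The count higher was 3 in 3 of the 4 other random draws of the thinning and 2 in the remaining one. Of the 14828 genes tested, 8.91% were called higher and 7.88% lower. The members' median log2 ratio was 0.41, against 0.09 for all genes, whose quartiles were -0.11 and 0.29.

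HLA-E, called in both comparisons, had 96 UMIs in ETV1-negative cells, against 52 in ETV1-positive cells, or 12.8 CPM (10.4 to 15.7) in ETV1-negative cells and 5.90 CPM (4.41 to 7.74) in ETV1-positive cells, a ratio of 2.18 (1.54 to 3.11). An HLA-E UMI was found in 13.7% of ETV1-negative cells (11.1 to 16.6) and in 6.49% of ETV1-positive cells (4.82 to 8.51). By ETV1 UMIs per cell, HLA-E was at 12.8 CPM in cells with 0, 11.9 with 1, 6.97 with 2, 5.43 with 3 and 5.42 with 4 or more. The cells with 1 ETV1 UMI thus lay beside the negative cells, and the intervals of neighboring classes overlapped throughout. The ratio ran from 1.79 to 2.39 over 5 random draws of the thinning. Without thinning it was 1.60 (1.25 to 2.06). With ETV1-positive cells set at 1 UMI or more it was 1.73 (1.28 to 2.34), and at 4 UMIs or more 2.37 (1.45 to 4.05). HLA-E was 2.27-fold higher in ETV1-negative cells among G1 cells (1.46 to 3.59), 4.35-fold among S cells (1.57 to 14.9, from 19 and 5 UMIs) and 1.59-fold among G2M cells (0.767 to 3.44). HLA-F had 11 UMIs in ETV1-negative cells and 5 in ETV1-positive cells, a ratio of 2.59 whose interval (0.830 to 9.52) includes 1.

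B2M was at 259 CPM (247 to 270) in ETV1-negative cells and 217 CPM (207 to 227) in ETV1-positive cells, a ratio of 1.19 (1.12 to 1.27). TAPBP was at 43.4 CPM in ETV1-negative cells and 32.5 CPM in ETV1-positive cells, a ratio of 1.33 (1.14 to 1.57), and HLA-C at 52.0 CPM in ETV1-negative cells and 41.7 CPM in ETV1-positive cells, a ratio of 1.25 (1.08 to 1.44). Over the draws the ratio ran from 1.19 to 1.26 for B2M, 1.33 to 1.65 for TAPBP and 1.25 to 1.39 for HLA-C. TAP1 had a ratio of 1.32 (0.954 to 1.83) and TAP2 of 1.58 (1.13 to 2.21), with 1.32 to 1.73 for TAP1 and 1.27 to 1.58 for TAP2 over the draws. HLA-B was at 37.1 CPM in ETV1-negative cells and 30.2 CPM in ETV1-positive cells, a ratio of 1.23 (1.03 to 1.46). That of HLA-B rests on 1 cell in part, since without the cell richest in members it was 1.13 (0.945 to 1.34), and over the draws it ranged from 1.03 to 1.25. From the median gene, B2M stood at 0.17, HLA-B at 0.21, HLA-C at 0.24, TAP1 at 0.32, TAPBP at 0.33 and TAP2 at 0.57 on the log2 scale. Each lay within 1.5-fold of it. Among all tested genes they ranked at percentiles 71.9, 75.2, 77.1, 81.9, 82.7 and 90.9, in the same order. NLRC5 had 7 UMIs in ETV1-negative cells and 2 in ETV1-positive cells, too few for a call.

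**Figure D3:**
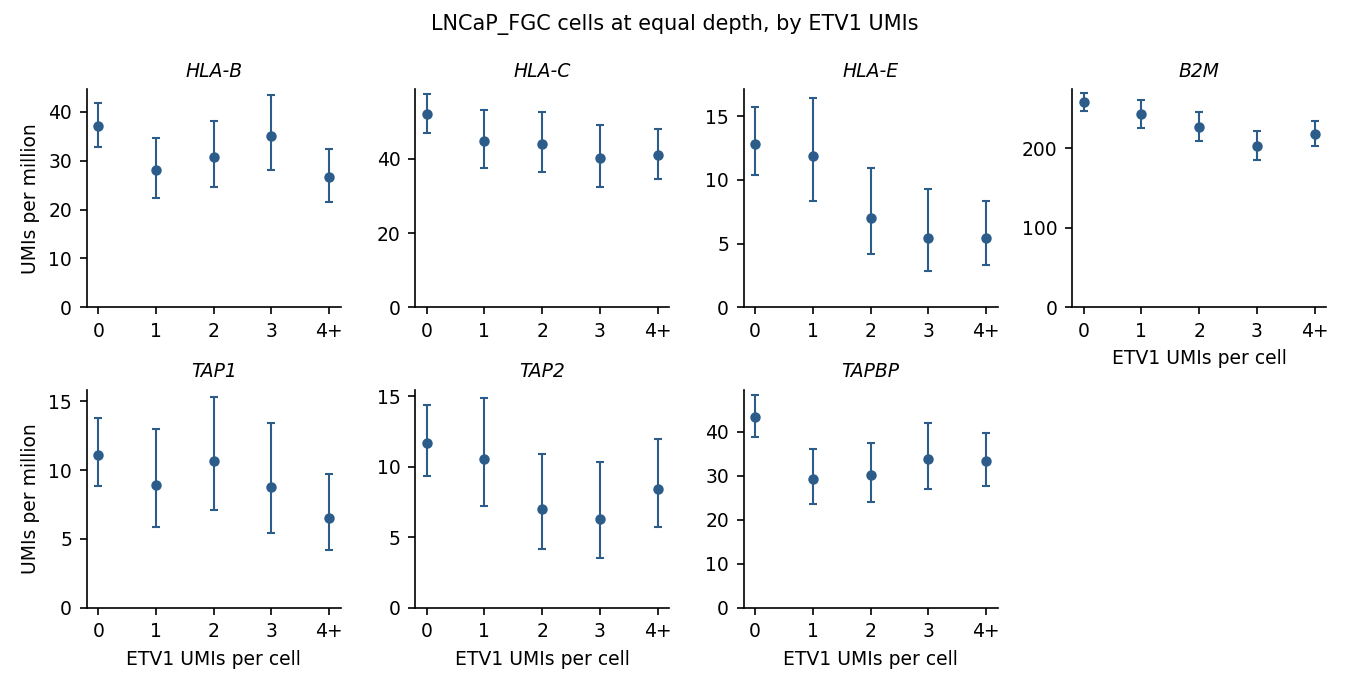
Level of 7 members in LNCaP_FGC cells thinned to 11901 UMIs, in CPM against the number of ETV1 UMIs in the cell (0, 1, 2, 3, 4 or more), with exact Poisson 95% intervals and axes from 0. HLA-E stands at 12.8 in cells with 0 ETV1 UMIs and at 5.42 in cells with 4 or more, and B2M at 259 and 218 in these same classes.

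Other measures moved with ETV1 status. G1 cells made up 40.1% of ETV1-negative cells and 47.8% of ETV1-positive cells. KLK3, the gene of prostate-specific antigen, was at 209 CPM in ETV1-negative cells and 1318 CPM in ETV1-positive cells. Fibroblast markers summed to 36.5 CPM in ETV1-negative cells and 12.7 CPM in ETV1-positive cells, of which ACTA2 made 32.1 CPM in ETV1-negative cells and 7.15 CPM in ETV1-positive cells. COL1A1, a collagen chain, was at 4.01 CPM in ETV1-negative cells and 5.22 CPM in ETV1-positive cells, and COL1A2, DCN and LUM were at 0. The endothelial marker VWF was at 2.41 CPM in ETV1-negative cells and 5.68 CPM in ETV1-positive cells, 2.36-fold lower (1.35 to 4.29). The median depth before thinning was 19052 UMIs in ETV1-negative cells and 19516 in ETV1-positive cells. Their part in the differences of the members was not tested, apart from the values by phase above. None of the 13 regulators of class I transcription and none of the 10 measured interferon signaling genes was called by ETV1 status. IRF1 had a ratio of 1.01 (0.629 to 1.61). Of 6 peptide supply genes 2 were called higher, both sparse, with PSMB9 at 12 UMIs in ETV1-negative cells and 5 in ETV1-positive cells. The regulators ranged, among those of at least 20 CPM, from NFYC at a ratio of 0.885 (0.740 to 1.06) to NFYB at 1.24 (1.06 to 1.45), both subunits of NF-Y. Of 104 tested neighbors of the members on chromosome 6, 10 were higher and 6 lower by ETV1 status, and 88 were within. Over all genes tested the shares were 8.91% higher and 7.88% lower.

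Members also differed by cell cycle phase. Phase was called per library from the expression of S and G2M genes, which gave 917 G1, 383 S and 550 G2M cells in LNCaP_C4-2B, and 804 G1, 461 S and 585 G2M cells in LNCaP_FGC. In G1 cells, set against the other phases of the same library, 3 of 8 members in LNCaP_C4-2B (HLA-B, HLA-E and TAP1) and 2 of 9 in LNCaP_FGC (HLA-E and TAPBP) were called higher, and none lower. The share of all genes called higher was 11.1% in LNCaP_C4-2B and 10.8% in LNCaP_FGC, and the share called lower 11.7% in LNCaP_C4-2B and 12.8% in LNCaP_FGC. In S cells of LNCaP_FGC 4 of 9 members were called lower (HLA-E, HLA-F, TAPBP and NLRC5), against 9.62% of all genes, though HLA-F and NLRC5 rested on 4 and 2 UMIs there, and in S cells of LNCaP_C4-2B HLA-E alone of 8 was lower, against 10.8% of all genes. No member was called higher in S cells, a call made for 9.1% of all genes in LNCaP_C4-2B and 8.7% in LNCaP_FGC. In G2M cells TAP1 alone of 8 was lower in LNCaP_C4-2B (9.81% of all genes) and none higher (7.74%), and in LNCaP_FGC the sparse HLA-F and NLRC5 were higher (8.2%) and none lower (10.3%).

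HLA-E had the same order in both libraries. It was at 15.3 CPM in G1 cells of LNCaP_C4-2B, against 9.81 CPM in its other phases, a ratio of 1.56 (1.28 to 1.89), and at 11.6 CPM in G1 cells of LNCaP_FGC, against 6.81 CPM in its other phases, a ratio of 1.70 (1.35 to 2.15). HLA-B had ratios of 1.45 (1.25 to 1.68) in LNCaP_C4-2B and 1.41 (1.26 to 1.59) in LNCaP_FGC. TAP1 was 1.95-fold higher in G1 cells of LNCaP_C4-2B (1.27 to 3.01) and 1.30-fold in those of LNCaP_FGC (1.04 to 1.62). In LNCaP_C4-2B it was lowest in G2M cells, with 15 UMIs and 1.32 CPM, against 3.44 CPM in the other phases. TAPBP had ratios of 1.21 (1.05 to 1.39) in LNCaP_C4-2B and 1.52 (1.36 to 1.70) in LNCaP_FGC. B2M showed 1.03 (0.973 to 1.09) in LNCaP_C4-2B and 1.21 (1.16 to 1.26) in LNCaP_FGC. TAP2 had the other order in LNCaP_FGC, where it was 1.34-fold lower in G1 cells (1.05 to 1.71) and 1.51-fold higher in G2M cells (1.19 to 1.90). Whether these ratios differ between the libraries was not tested. G1 cells were also the shallowest by median, with 15813 UMIs in LNCaP_C4-2B and 17472 in LNCaP_FGC.

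**Figure D4:**
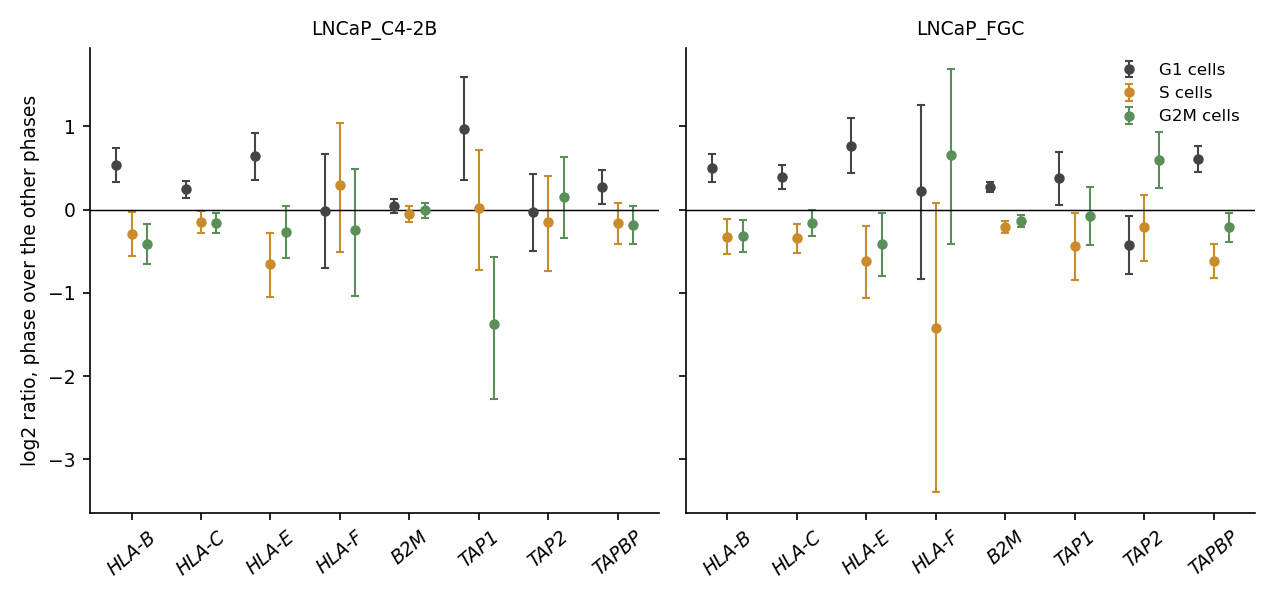
Log2 ratio of CPM in G1, S and G2M cells over the other phases of the same library, for 8 members in LNCaP_C4-2B (left) and LNCaP_FGC (right), with exact conditional 95% intervals. HLA-E and HLA-B lie above 0 in G1 cells of both libraries, and TAP2 lies below 0 in G1 cells of LNCaP_FGC.

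The spread between cells was measured at equal depth, as the variance of UMIs per cell over their mean. A value of 1 is what random sampling of molecules alone gives. In LNCaP_C4-2B all members but B2M lay close to 1, from 0.975 (HLA-F) to 1.06 (HLA-C), with B2M at 1.31, over 1665 cells. The median of 10077 genes with at least 0.05 UMIs per cell was 1.04. In LNCaP_FGC the spread was wider for several members, at 2.06 for HLA-B, 1.81 for B2M, 1.38 for TAPBP, 1.30 for HLA-E, 1.15 for HLA-C and 1.14 for TAP1. TAP2 (1.07), HLA-F (0.989) and NLRC5 (0.994) lay close to 1, and the median over 10801 genes was 1.06. This measure rises with the mean, which for B2M was 2.82 UMIs per cell in LNCaP_FGC and 1.62 in LNCaP_C4-2B. Variance minus mean, over the squared mean, was 0.286 for B2M in LNCaP_FGC and 0.194 in LNCaP_C4-2B. The median over all genes was 0.132 in LNCaP_FGC and 0.109 in LNCaP_C4-2B. Over 5 draws of the thinning HLA-B ranged from 1.02 to 1.10 in LNCaP_C4-2B and from 1.99 to 2.09 in LNCaP_FGC. The value of HLA-B rested on a single LNCaP_FGC cell and fell to 1.29 without it, and that of HLA-E then fell to 1.08. B2M remained at 1.76 and TAPBP at 1.38. For genes above 1 the intervals on CPM given here are narrower than the spread between cells would make them.

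**Figure D5:**
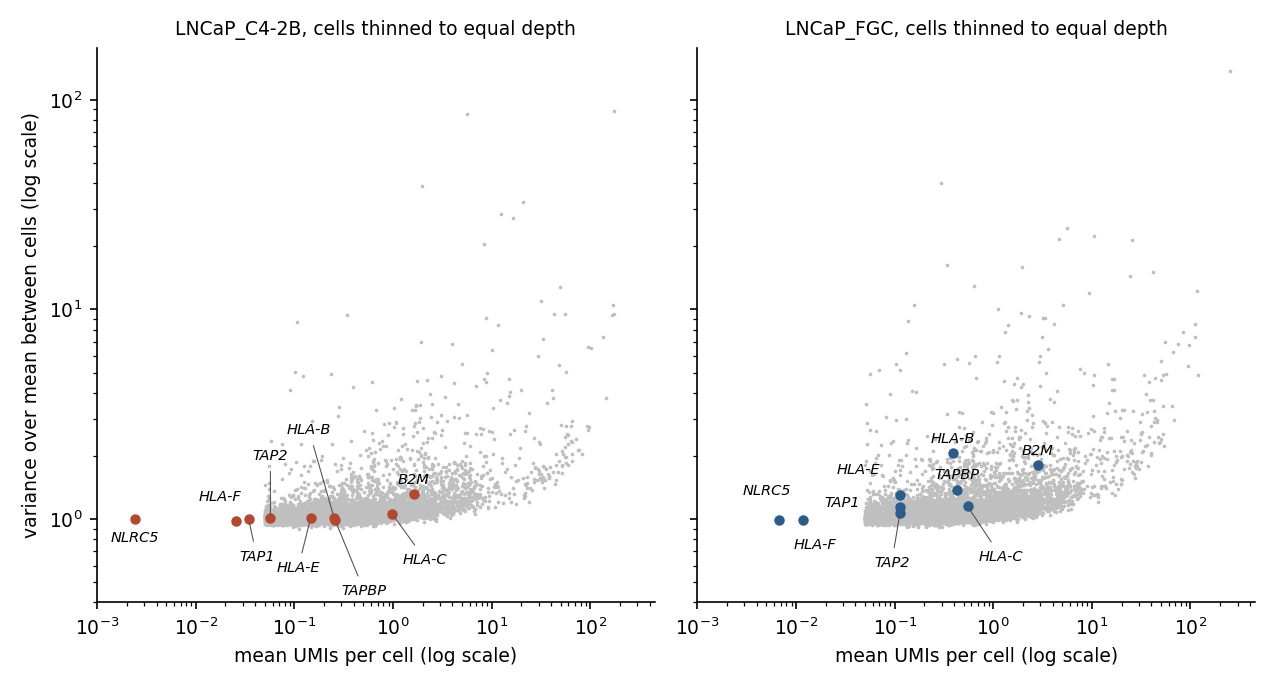
Variance over mean of UMIs per cell against mean UMIs per cell (log axes), in LNCaP_C4-2B (left, 1665 cells) and LNCaP_FGC (right, 1623 cells), each cell thinned to 11901 UMIs. Gray points are all genes with at least 0.05 UMIs per cell and colored points are the 9 members, of which HLA-B (2.06) and B2M (1.81) in LNCaP_FGC lie farthest above 1.

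At equal depth, the 4 heavy chain genes together had a median of 1 UMI per cell in each library, with a highest of 7 in LNCaP_C4-2B and 35 in LNCaP_FGC. No heavy chain UMI was seen in 26.1% of LNCaP_C4-2B cells (24.0 to 28.3) and 39.5% of LNCaP_FGC cells (37.1 to 41.9). Cells with neither a heavy chain nor a B2M UMI made up 5.59% of LNCaP_C4-2B cells (4.53 to 6.80) and 4.62% of LNCaP_FGC cells (3.65 to 5.76). At a mean of 1.40 heavy chain UMIs per cell in LNCaP_C4-2B and 1.06 in LNCaP_FGC, absence of a UMI in a cell does not show that the gene was silent there.

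The cell richest in members, in LNCaP_FGC, held 28 HLA-B, 8 HLA-C, 8 HLA-E, 1 HLA-F, 19 B2M, 2 TAP1 and 5 TAPBP UMIs among its 14696 UMIs. It was called G1 and had 0 ETV1 and 0 KLK3 UMIs. In LNCaP_C4-2B no cell held more than 5 HLA-B UMIs, and the cell richest in members there, also called G1, held 27 B2M, 3 HLA-B, 3 HLA-C and 2 HLA-E among 10750 UMIs. In the 10% of LNCaP_FGC cells with most member UMIs (162 cells, 8 to 58 UMIs), 59.9% were called G1 (51.9 to 67.5) and 53.1% had 0 ETV1 UMIs (45.1 to 61.0). In the other 1461 LNCaP_FGC cells 41.9% were called G1 (39.3 to 44.5) and 37.1% had 0 ETV1 UMIs (34.6 to 39.6). ACTA2 was at 44.1 CPM in the 162 cells and 15.01 CPM in the others, and KLK3 at 587 CPM in the 162 cells and 812 CPM in the others. Their part in the member levels was not tested. In LNCaP_C4-2B, 57.2% of the 166 richest cells (49.3 to 64.9) and 46.4% of the other cells (43.8 to 48.9) were called G1.

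Members varied together only weakly from cell to cell, which is described here without a test because all points share a library and the counts are sparse. Over 1665 LNCaP_C4-2B cells the highest correlation of log values between 2 members was 0.079, between TAP1 and TAPBP. Over 1623 LNCaP_FGC cells it was 0.146, between HLA-B and B2M, followed by 0.134 between HLA-B and TAPBP and 0.133 between HLA-E and B2M. The sum over members, here and in the choice of the richest cells above, counts UMIs, so the most abundant members weigh most in it. At equal depth B2M had 4580 UMIs and HLA-C 892 in LNCaP_FGC, against 2690 and 1622 in LNCaP_C4-2B. Among genes with at least 0.2 UMIs per cell, those most like the summed members in LNCaP_C4-2B were FXYD3 (0.157), TMPRSS2 (0.156), H2AFJ (0.145), NEAT1 (0.144) and AZGP1 (0.136). In LNCaP_FGC they were MT-CO2 (0.265), CSTB (0.257), MAF (0.253), MT-CYB (0.244) and ELOVL5 (0.242).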

How the data were processed

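scRNA-Seq of 2 lines (1 library each, 10x Genomics 3′ v3.1 chemistry) was analyzed. Per the submitters' processing notes, the authors used Cell Ranger 6.0 on GRCh38 and Seurat 5.011. They removed low-quality cells and cells with a high doublet score, drew the same number of cells per line, and thinned the matrices at random. The authors deposited whole UMI counts, which were already thinned. No further doublet caller was run.

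Members and gene lists were chosen with earlier results of these data known. UMIs were summed per library or group of cells and compared as CPM ratios (Python 3.11.15, scipy 1.17.1), with exact Poisson, conditional and Clopper-Pearson 95% intervals. A gene needed 10 UMIs over both groups, and a gene at 0 in a group was set to 3 UMIs there. For ETV1 status and spread, cells were thinned to 11901 UMIs, the percentile 10 in LNCaP_C4-2B. Cell cycle phase used CellCycleScoring of Seurat 5.3.0 under R 4.3.3, with 42 S phase and 52 G2M markers. Alternative scalings used edgeR 4.0.16 (TMM) and DESeq2 1.42.0 (size factors), with no test. Named genes were all members, in each related list the highest and lowest ratio with at least 20 CPM, JAK1, IRF1, RFX5, PSMB8 and PSMB9, the 5 genes most like the members in each library, and markers above 1 CPM. Some genes that this rule or the lists include are not reported here. Promoter sequences are from RefSeq. The scripts were tested on simulated data.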

Additional observations from a re-analysis of the deposited data

How the results depend on the processing

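Between the libraries, equal depth and equal weighting of cells left the counts at 3 members higher and 2 lower. Median-of-ratios and TMM factors shift every gene and the median gene alike, so these counts could not change under them. CPM without ribosomal protein and mitochondrial genes also rescales the remaining genes alike. It could change the counts only through which genes set the median, and they stayed at 3 and 2. The count lower was 1 without the deepest 10% of cells, in G1 cells only, at a 2-fold call and with at least 100 UMIs (8 members tested), and 5 when CPM ratios were set against 1. HLA-E, at 0.96 log2 units over the median gene, was not called higher between the libraries at the 2-fold call. By ETV1 status, the 2 members called higher became 4 without thinning (9 members tested), 3 in draws 2, 3 and 5 of the thinning, with ETV1-positive cells set at 1 or 4 UMIs or more and with levels from all UMIs, and 1 in G1 cells only, in G2M cells only and with at least 100 UMIs (7 members tested in each). None was called lower under any alternative run. At a 2-fold call, 14.9% of all genes were higher and 16.2% lower between the libraries, and 3.66% higher and 3.61% lower by ETV1 status, where a minimum of 100 UMIs gave 2.87% higher and 2.98% lower of 10020 genes. No member's ratio changed sign in either comparison. Of 72 alternative ratios between the libraries, 21 moved out of the interval of the main ratio, as did 7 of 109 by ETV1 status. With median-of-ratios factors, B2M was 1.21-fold, TAPBP 1.19-fold and TAP1 2.46-fold lower in LNCaP_C4-2B. The ratios of HLA-C, HLA-E and HLA-F rose to 2.59, 1.93 and 3.07 with these factors. By ETV1 status, the ratio of TAP2 ran from 1.05 (G2M cells) to 3.32 (S cells). Among alternatives chosen after seeing the data, taking levels from all UMIs of the same cells gave an HLA-E ratio of 2.00 (1.53 to 2.63), and leaving out the LNCaP_FGC cell with most member UMIs gave 2.02 (1.42 to 2.90). Calling phase on both libraries together moved none of 48 ratios by phase out of its interval. Of 117 alternative values of the spread, 50 moved by more than their sampling error. No paired analysis was possible because each line has 1 library. The comparison by NLRC5 status was not run, with fewer than 50 positive cells in every setting. Depth limits the values of HLA-F and NLRC5 most, and with 1 library per line no difference here has a replicate check.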
